A study of Mus musculus with 12 samples.

Results

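A set of 10 genes named in the colon's defence against bacteria was followed across mice with and without an intestinal knockout of Ehf. They were taken by symbol from 12 count files, and all 10 were found among the 55304 gene symbols. Pglyrp1, Wfdc2, Lypd8, Retnlb, Lcn2, Ang4 and Lyz2 encode proteins that bind, kill or restrain bacteria. Wfdc18 encodes a secreted protein with a WAP domain, a fold shared with antiproteases that also act on bacteria. Nod2 encodes a sensor of bacterial cell wall, and Pigr encodes the receptor that carries IgA into the lumen. Of the 10, 9 had enough counts to be tested. Lcn2 did not.

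The RNA came from colonic epithelial cells of C57BL/6 mice aged 6 weeks, with 4 mice in each of 3 groups. EHF IKO mice carried the intestinal knockout and received tamoxifen. Control-OIL mice were labelled wild-type, received sunflower oil, and share the source prefix EVCER with the EHF IKO mice. Control-TMX mice were labelled wild-type with the source VilCreER, in which Villin drives a tamoxifen-activated Cre, and received tamoxifen to account for effects of that drug. Control-OIL therefore differs from EHF IKO in tamoxifen as well as in Ehf, Control-TMX differs from it in the line, and the controls differ from each other in both. Each library has its own numbered source name, read here as its own mouse.

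Colonic epithelium keeps a dense microbiota away from its surface by secreting proteins into mucus and by passing IgA into the lumen. Colonocytes, goblet cells and deep crypt secretory cells each release a different mix of these proteins. Sensors such as NOD2 and the Toll-like receptors detect bacterial cell wall and other microbial products and signal to NF-kB, which induces many defence genes. The product of Ehf belongs to the ETS transcription factors, which bind DNA around a GGAA core, and acts in epithelia.

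The libraries held 7421411 to 10344161 counted reads. Each level is in CPM, a count relative to its TMM-scaled library, with mean ± SD and n = 4 mice per group. Differences are log2 fold changes with their SE, taken from 1 edgeR quasi-likelihood fit of the 12 libraries, and a gene was called at a Benjamini-Hochberg adjusted p under 0.05 over 15743 genes. The summed level of 9 epithelial markers was 7009 to 10231 CPM per library, and mitochondrial genes took 10.7% to 26.3% of the counts. EHF IKO replicate 2 stood apart: 11 genes took 10.4% of its counts, against at most 0.114% elsewhere. These genes were at 100 CPM or more in it and over 20 times any other library, here in CPM of plain library totals without TMM. For Ehf the mean was 428 ± 46.4 CPM (Control-OIL), 345 ± 21.001 (Control-TMX) and 341 ± 30.1 (EHF IKO), with adjusted p = 0.159 and 0.972 by edgeR. Which exons were deleted is not in the labels and the counts cover the whole gene, so these values do not check the deletion. Replicates 1 and 2 of every group read as female and 3 and 4 as male from Xist and Y-linked genes.

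The stretches before an annotated start are shown for the 3 genes that fell in EHF IKO, because the knocked-out gene encodes a factor that binds GGAA. Wfdc2 is shown beside them as a relative of Wfdc18 that did not pass the test. RefSeq (GRCm38.p6) gave a start for 9 of the 10 genes, Retnlb being the exception. The sequences lie on the plus strand within the 250 bases before that start, without exon bases of GENCODE M21, and capitals mark GGAA or its reverse complement TTCC. They cover chr7:18884440-18884679, chr11:83708754-83709003, chr8:88647097-88647314 and chr2:164562475-164562578. Those of Pglyrp1 and Wfdc2 lie inside the annotated gene spans, which begin at 18871331 and 164562413, and so not before the first annotated start. Wfdc2 had 2 windows, of which 1 was used.
Pglyrp1: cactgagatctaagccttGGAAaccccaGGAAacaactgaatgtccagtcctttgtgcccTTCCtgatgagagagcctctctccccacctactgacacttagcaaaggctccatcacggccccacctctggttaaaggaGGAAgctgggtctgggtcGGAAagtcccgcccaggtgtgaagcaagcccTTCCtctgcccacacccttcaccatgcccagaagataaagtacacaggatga
Wfdc18: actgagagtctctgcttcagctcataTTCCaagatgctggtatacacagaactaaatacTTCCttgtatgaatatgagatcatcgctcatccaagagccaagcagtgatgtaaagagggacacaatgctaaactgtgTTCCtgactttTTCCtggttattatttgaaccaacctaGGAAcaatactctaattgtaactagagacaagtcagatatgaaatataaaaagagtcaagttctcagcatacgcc
Nod2: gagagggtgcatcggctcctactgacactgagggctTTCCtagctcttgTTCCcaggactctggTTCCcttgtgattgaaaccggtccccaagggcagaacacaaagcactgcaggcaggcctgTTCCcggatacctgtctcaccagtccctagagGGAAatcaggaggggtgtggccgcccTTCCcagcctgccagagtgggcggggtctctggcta
Wfdc2: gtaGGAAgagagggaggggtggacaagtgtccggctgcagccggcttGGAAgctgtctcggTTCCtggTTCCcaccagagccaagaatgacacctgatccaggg
The full 250-base windows held 6 matches in Pglyrp1, 5 in Wfdc18, 6 in Nod2 and 5 in Wfdc2. Among the 32536 distinct windows of all genes, 93.4% held at least 1 match, the median was 3, 18.1% held 5 or more and 8.70% held 6 or more. The longer AGGAAG or CTTCCT, each copy of which contains a GGAA or TTCC, occurred 3 times in Pglyrp1, once in Wfdc18, not in Nod2 and 2 times in Wfdc2. At least 1 copy stood in 29.6% of all windows, 2 or more in 6.29% and 3 or more in 1.23%. High counts of the short core were not limited to genes that fell: Lypd8 held 6 matches and Ang4 held 7. Lcn2, which had too few counts to be tested, held 3 of the longer one. These matches describe letters only, and binding was not measured.

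The set did not move as a block. In EHF IKO the peptidoglycan-binding Pglyrp1, the WAP-domain gene Wfdc18 and the sensor Nod2 fell against Control-OIL, and no member rose. That is 3 of 9 tested members, where 1.68% of all tested genes were called in either direction, 0.762% falling and 0.921% rising. The members were chosen with earlier results of these data known, so these shares do not test the set. Against Control-TMX only Pglyrp1 fell, with 0.800% of all genes called, 0.470% falling and 0.330% rising. Against the mean of both controls Pglyrp1 and Wfdc18 fell, with 1.72% called, 0.858% in each direction. The median log2 fold change over the 9 members was -0.15 against Control-OIL, 0.26 against Control-TMX and 0.04 against the mean, beside -0.01, 0.02 and 0.01 over all tested genes. Pglyrp1, Wfdc18 and Nod2 were also the members whose EHF IKO values lay below all 8 control libraries, as did 1.23% of all genes.

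**Figure D1:**
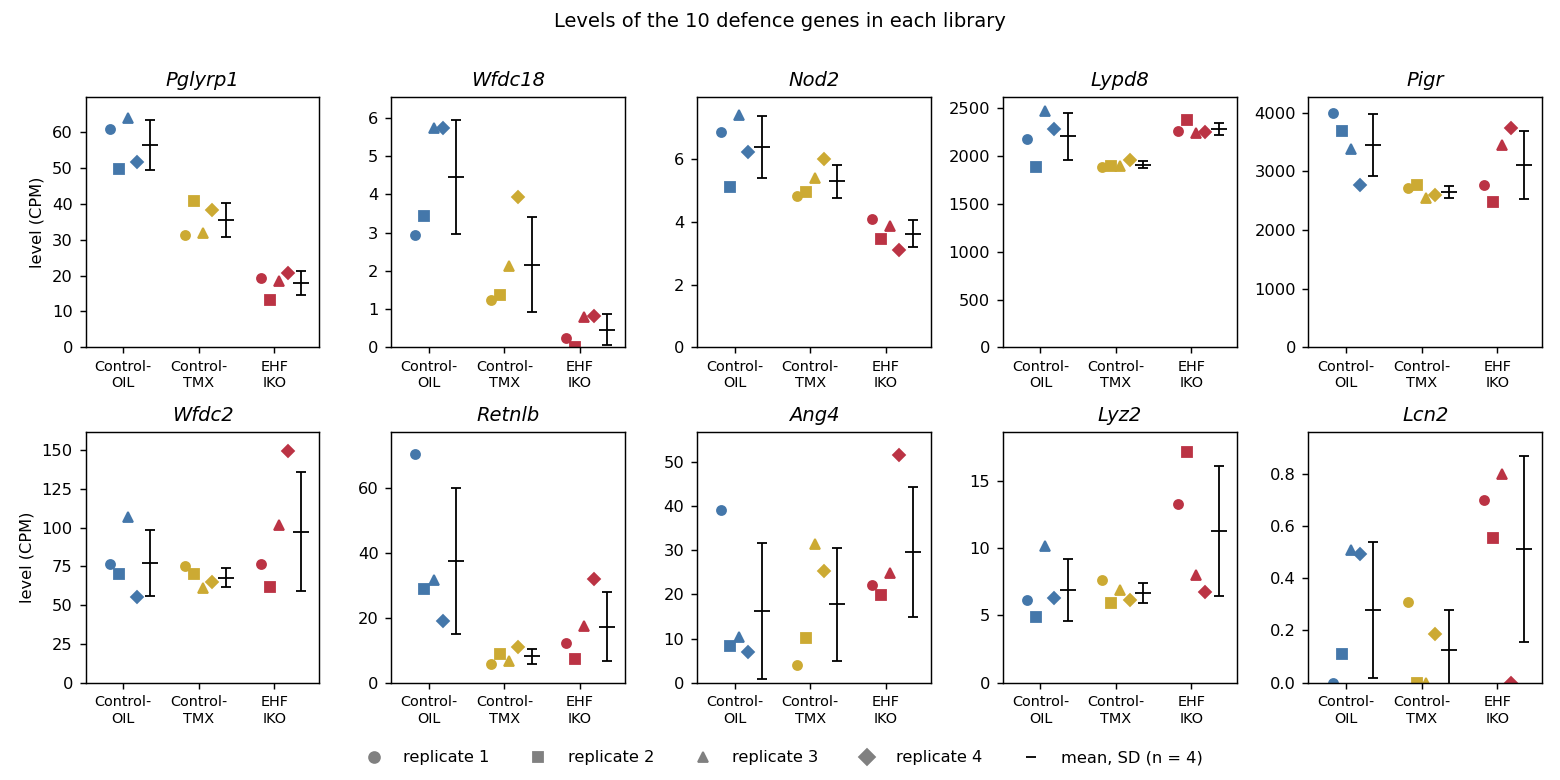
CPM of the 10 genes (vertical axes, from 0) in each library, by group, with the replicate number as the marker shape and the mean and SD of 4 mice beside the points. In EHF IKO, all 4 values of Pglyrp1, Wfdc18 and Nod2 lie below the 8 control values, while the other 7 genes overlap with at least 1 control group.

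Pglyrp1 (ENSMUSG00000030413, chromosome 7, 18871331 to 18890459, plus strand) encodes a secreted peptidoglycan recognition protein that is toxic to bacteria. Its level was 60.8, 49.7, 64.1 and 51.6 CPM in Control-OIL replicates 1 to 4 and 31.2, 40.9, 31.8 and 38.2 in Control-TMX. It was 19.2, 13.2, 18.6 and 20.8 CPM in EHF IKO. The 3 groups did not overlap: every EHF IKO library was below every Control-TMX library, and these were below every Control-OIL library. The means were 56.5 ± 6.97, 35.5 ± 4.79 and 18.0 ± 3.29 CPM, from 1910, 1241 and 556 counts in all. Pglyrp1 fell in EHF IKO by 1.65 ± 0.15 on the log2 scale against Control-OIL (3.14-fold, edgeR adjusted p = 2.11e-05) and by 0.98 ± 0.15 against Control-TMX (1.98-fold, adjusted p = 0.00366). The difference between the controls was -0.67 ± 0.14, with an adjusted p of 0.114 by edgeR. Pglyrp1 was the only member called against each control separately, as were 0.254% of all genes in the falling direction. Its calls in EHF IKO held under each alternative that was run, and without EHF IKO replicate 2 the differences were -1.53 and -0.86. Pglyrp1 is also a granule protein of neutrophils. Of 12 neutrophil markers, 11 averaged under 1 CPM over the libraries, among them S100a8, S100a9, Mpo and Elane, and Ly6g was at 21.02, 19.4 and 19.4 CPM on average. The summed neutrophil list averaged 23.9, 20.6 and 21.4 CPM, so most of it was Ly6g alone. It was 16.5 to 39.9 CPM in Control-OIL, 12.5 to 26.8 in Control-TMX and 11.4 to 29.3 in EHF IKO. The overlap of the groups there is thus mainly that of Ly6g. In such bulk samples, fewer cells of a type and less RNA per cell cannot be told apart.

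Wfdc18 (ENSMUSG00000000983, chromosome 11, 83709015 to 83711348, plus strand) encodes a small secreted protein with a WAP domain, a fold shared with antiproteases that also act on bacteria. It had 21, 31, 45 and 58 counts in Control-OIL, 8, 11, 20 and 42 in Control-TMX, and 2, 0, 6 and 6 in EHF IKO. In CPM these were 2.93 to 5.73 in Control-OIL, 1.24 to 3.93 in Control-TMX and 0 to 0.806 in EHF IKO. The highest EHF IKO library was below the lowest control, while the control groups overlapped. The means were 4.46 ± 1.48, 2.16 ± 1.24 and 0.459 ± 0.407 CPM. Wfdc18 fell by 3.26 ± 0.55 on the log2 scale against Control-OIL (edgeR adjusted p = 0.00771) and by 2.76 ± 0.52 against the mean of both controls (adjusted p = 0.0141). Against Control-TMX the difference was -2.26 ± 0.58, and its adjusted p of 0.0980 by edgeR missed the threshold. DESeq2 called that difference (adjusted p = 0.00765), and adjusted p over the alternatives ran from 2.47e-05 to 0.254. Without EHF IKO replicate 1 the adjusted p against the mean was 0.0652 by edgeR.

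Nod2 (ENSMUSG00000055994, chromosome 8, 88647315 to 88688474, plus strand) encodes a cytosolic receptor for muramyl dipeptide, a fragment of bacterial cell wall. It stood at 6.85, 5.09, 7.39 and 6.22 CPM in Control-OIL, 4.82, 4.94, 5.40 and 5.98 in Control-TMX, and 4.08, 3.45, 3.86 and 3.09 in EHF IKO. All EHF IKO libraries were below the controls, and the controls overlapped. Nod2 fell by 0.81 ± 0.19 on the log2 scale against Control-OIL (1.75-fold, edgeR adjusted p = 0.0404). The difference was -0.55 ± 0.19 against Control-TMX (adjusted p = 0.250) and -0.68 ± 0.17 against the mean (adjusted p = 0.0543). The call was lost in 9 of 12 fits without 1 library, with adjusted p up to 0.136 by edgeR and 0.114 without EHF IKO replicate 2, while the difference stayed between -0.90 and -0.74. Limma-voom gave 0.0535 and the replicate block gave 0.0870.

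The calls of Wfdc18 and Nod2 against Control-OIL were not met when a score of stromal markers was a covariate (edgeR adjusted p = 0.662 and 0.661), in a fit that called 26 of all genes in place of 265. There Wfdc18 differed by -2.47 ± 0.88 on the log2 scale and Nod2 by -0.91 ± 0.33, beside -3.26 ± 0.55 and -0.81 ± 0.19 without the covariate. The score, a mean of centred log2 CPM over the tested markers, was -0.58 to -0.33 in Control-OIL, 0.03 to 0.35 in Control-TMX and -0.25 to 0.61 in EHF IKO. The summed level of the 13 stromal markers, a different measure, was 314 to 410 CPM in Control-OIL, 483 to 744 in Control-TMX and 441 to 1017 in EHF IKO. Both were above Control-OIL in all 8 libraries of tamoxifen-treated mice, and their part in the difference cannot be told apart from tamoxifen there. Pglyrp1 kept its call against Control-OIL with that covariate (adjusted p = 0.0232). Macrophage and monocyte markers, the cells besides epithelium in which Nod2 is known to be active, summed to 24.9 to 29.2, 23.5 to 30.9 and 26.1 to 39.1 CPM in the same order of groups, and their part in the Nod2 values was not tested.

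**Figure D2:**
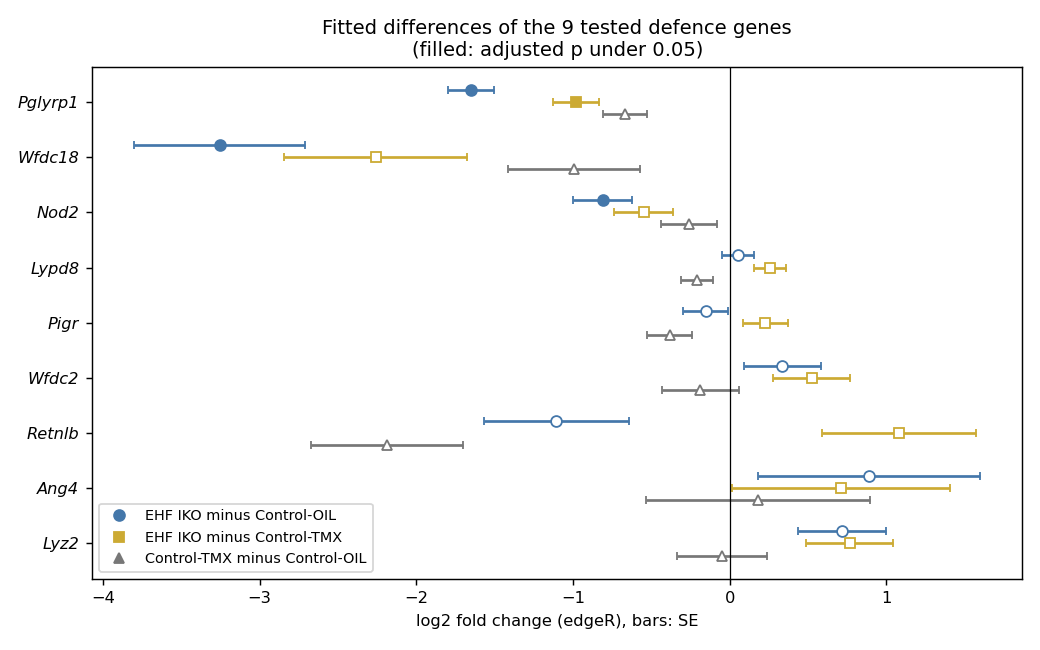
Log2 fold changes (horizontal axis, edgeR) of the 9 tested genes for EHF IKO minus Control-OIL, EHF IKO minus Control-TMX and Control-TMX minus Control-OIL, with SE bars and filled symbols at an adjusted p under 0.05. Pglyrp1 is filled against both controls, Wfdc18 and Nod2 against Control-OIL, and no symbol is filled between the controls.

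Lypd8 and Pigr were the most abundant members and were near control levels in EHF IKO. Lypd8 (ENSMUSG00000013643, chromosome 11, 58379043 to 58390728, plus strand) encodes a membrane-anchored protein of colonocytes that binds flagella and is shed into the lumen. It was at 2183, 1882, 2467 and 2286 CPM in Control-OIL, 1885, 1901, 1898 and 1960.3 in Control-TMX, and 2267, 2377, 2244 and 2249 in EHF IKO. The EHF IKO values lay within the Control-OIL range and above all 4 Control-TMX values, as did those of 3.32% of all genes. Its log2 fold change was 0.05 ± 0.10 against Control-OIL and 0.26 ± 0.10 against Control-TMX (edgeR adjusted p = 0.922 and 0.330).

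Pigr (ENSMUSG00000026417, chromosome 1, 130826684 to 130852249, plus strand) encodes the polymeric immunoglobulin receptor. Control-OIL held 3992, 3678, 3384 and 2757 CPM, Control-TMX held 2719, 2760.3, 2539.7 and 2587, and EHF IKO held 2769, 2480.0, 3443 and 3729. The EHF IKO values overlapped with both control groups, and the difference was -0.15 ± 0.14 against Control-OIL and 0.23 ± 0.14 against Control-TMX (edgeR adjusted p = 0.775 and 0.581). Of 7 tested genes for IgA and plasma cells, which supply the cargo of that receptor, none was called in any of the 4 comparisons. That is near the share of all genes called, which was 0.0826% between the controls and at most 1.72% in the others. The median log2 fold change of the 7 was 0.31 against Control-OIL and 0.66 against Control-TMX. Jchain, which joins IgA units, was at 7.20 ± 2.19, 4.04 ± 0.386 and 9.19 ± 5.51 CPM, with EHF IKO libraries from 3.36 to 16.6. Igkc, the kappa light chain, was at 16.9 ± 5.09, 11.6 ± 2.38 and 23.0 ± 12.3 CPM, and the 4 EHF IKO libraries again overlapped with both controls. Without EHF IKO replicate 4, Jchain and Igkc were called against the mean of both (1.03 and 0.98, edgeR adjusted p = 0.0276 and 0.0273), and with no filter on low counts Jchain was (0.73, adjusted p = 0.0123). With the stromal covariate described above they differed by -0.14 and -0.12 (adjusted p = 0.935 and 0.944).

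**Figure D3:**
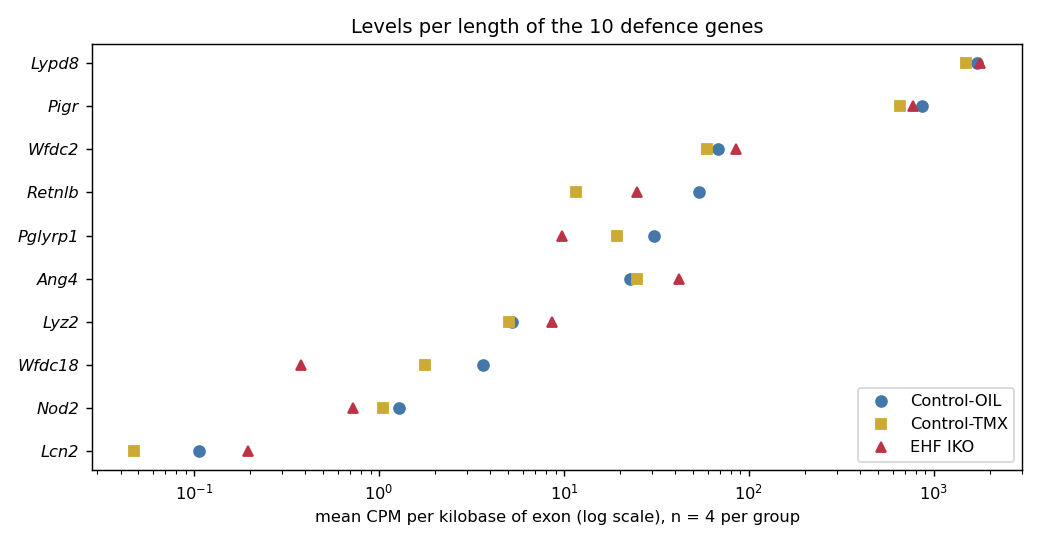
Mean CPM per kilobase of exon in each group (horizontal axis, log scale, n = 4 per group) for the 10 genes, ordered by their level in the controls. Lypd8 and Pigr lie highest and Lcn2 lowest, and Wfdc18 shows the widest gap between EHF IKO and the controls among the 9 tested genes.

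Per kilobase of exon, the control mean ran from 1603 CPM for Lypd8 and 758 for Pigr to 2.71 for Wfdc18 and 1.16 for Nod2. Lypd8 ranked 15th and Pigr 27th of the 15743 tested genes on that scale, and Nod2 ranked 12575th. Between them stood Wfdc2 at 63.6, Retnlb at 32.8, Pglyrp1 at 25.1, Ang4 at 23.9 and Lyz2 at 5.14 CPM per kilobase. Retnlb, Pglyrp1 and Ang4 were neighbours whose libraries overlapped, so their order is not firm. Among the 10 genes in the controls, Pglyrp1 had rank 5 per kilobase and rank 4 in CPM, Wfdc18 had ranks 8 and 9, and Nod2 had ranks 9 and 8.

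Wfdc2, a further WAP-domain gene that is secreted by epithelia (ENSMUSG00000017723, chromosome 2, 164562413 to 164568510, plus strand), was at 76.7, 69.9, 106.75 and 55.6 CPM in Control-OIL and 75.2, 70.1, 60.9 and 65.0 in Control-TMX. EHF IKO held 76.4, 62.0, 102 and 149 CPM. Replicate 4 was the highest of all libraries and the other 3 lay within the Control-OIL range. The difference was 0.34 ± 0.24 against Control-OIL and 0.52 ± 0.25 against Control-TMX (edgeR adjusted p = 0.681 and 0.428), in the opposite direction to Wfdc18. Of 16 other WAP-domain genes in the files, Slpi, the secretory leukocyte protease inhibitor, alone had enough counts. It was at 9.54 ± 2.38, 5.39 ± 1.68 and 10.4 ± 4.34 CPM and was not called.

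Retnlb and Ang4, products of secretory cells, differed widely among mice of 1 group. Retnlb (ENSMUSG00000022650, chromosome 16, 48816856 to 48818892, plus strand) encodes a goblet cell protein that kills bacteria at the mucus. It was at 70.4, 28.9, 31.6 and 19.2 CPM in Control-OIL, 5.90, 8.77, 6.67 and 11.0 in Control-TMX, and 12.3, 7.45, 17.6 and 32.0 in EHF IKO. Control-TMX lay below all Control-OIL libraries, and EHF IKO overlapped with both. The difference of EHF IKO was -1.11 ± 0.46 against Control-OIL and 1.08 ± 0.49 against Control-TMX (edgeR adjusted p = 0.357 and 0.421), so its sign depended on the control. Summed goblet cell markers were 22205 to 40764, 35383 to 42879 and 26157 to 37101 CPM, and their part in the Retnlb values was not tested.

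Ang4 (ENSMUSG00000060615, chromosome 14, 51763878 to 51773590, minus strand) encodes an antibacterial ribonuclease of Paneth and goblet cells. It was at 39.1, 8.30, 10.3 and 6.91 CPM in Control-OIL, 4.04, 10.1, 31.4 and 25.2 in Control-TMX, and 22.01, 19.9, 24.7 and 51.4 in EHF IKO. All 3 groups overlapped. The difference was 0.89 ± 0.71 against Control-OIL and 0.71 ± 0.70 against Control-TMX (edgeR adjusted p = 0.727 and 0.747). Summed markers of deep crypt secretory and Paneth cells were 122 to 201, 116 to 170 and 275 to 474 CPM. Each EHF IKO sum exceeded every control, but Reg4 alone was most of each EHF IKO sum. Reg4 was at 49.8 to 96.1, 41.0 to 95.8 and 197 to 386 CPM, and the sums without it overlapped among the groups. The part of these cells in the Ang4 values was not tested. Of 10 such markers, 4 were tested and 6 averaged under 1 CPM. Reg4 and Pla2g2a were called in each comparison of EHF IKO, where 0.800% to 1.72% of all genes were. Lyz1, which defines Paneth cells, was at 0.20 to 0.58 CPM on average. Ang and Rnase4, the only other tested genes of the RNase A family, were not called in any comparison of EHF IKO, as most tested genes were not. Ang4 has near relatives and was counted from uniquely mapped reads alone, so its level is uncertain.

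Lyz2 (ENSMUSG00000069516, chromosome 10, 117277331 to 117282321, minus strand) encodes the lysozyme of macrophages and neutrophils, which cuts peptidoglycan. It was at 6.15, 4.87, 10.2 and 6.32 CPM in Control-OIL, 7.61, 5.93, 6.88 and 6.17 in Control-TMX, and 13.3, 17.1, 7.98 and 6.72 in EHF IKO. EHF IKO replicates 1 and 2 were above every control, and replicates 3 and 4 were within the Control-OIL range. The difference was 0.72 ± 0.28 against Control-OIL and 0.77 ± 0.28 against Control-TMX (edgeR adjusted p = 0.281 and 0.282). Without EHF IKO replicate 2 it was 0.45 and 0.50. Against the mean of both controls it was 0.74 ± 0.24 (adjusted p = 0.157 by edgeR). That comparison was called without EHF IKO replicate 4 (0.92, adjusted p = 0.0337) and with no filter on low counts (0.70, adjusted p = 0.00827). Macrophage and monocyte markers, a list without Lyz2, summed to 37.5, 38.1, 39.1 and 26.1 CPM in EHF IKO against at most 30.9 in the controls. Of its 15 genes, 10 were tested. Against the mean of both controls 8 were higher and 2 lower, beside 8174 and 7569 of all 15743 tested genes. The log2 fold changes of the 10 ran from -1.16 to 1.21. Mrc1, the mannose receptor of tissue macrophages, was the only 1 called there, where 0.858% of all genes rose. It rose by 1.21 ± 0.22 (edgeR adjusted p = 0.0123). The part of these cells in the Lyz2 values was not tested. Lyz2 and Lyz1 are close copies, and reads that mapped to both were left out.

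Lcn2, a neutrophil and epithelial protein that withholds iron from bacteria (ENSMUSG00000026822, chromosome 2, 32384633 to 32388252, minus strand), had 30 counts in the 12 libraries. They were 0, 1, 4 and 5 in Control-OIL, 2, 0, 0 and 2 in Control-TMX, and 6, 4, 6 and 0 in EHF IKO. Each group held a library at 0, and an exact two-sided permutation test of log2(CPM + 0.5) gave p = 0.343 against Control-OIL and 0.171 against Control-TMX, where the smallest possible is 0.0286. These few counts do not settle whether Lcn2 differed.

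**Figure D4:**
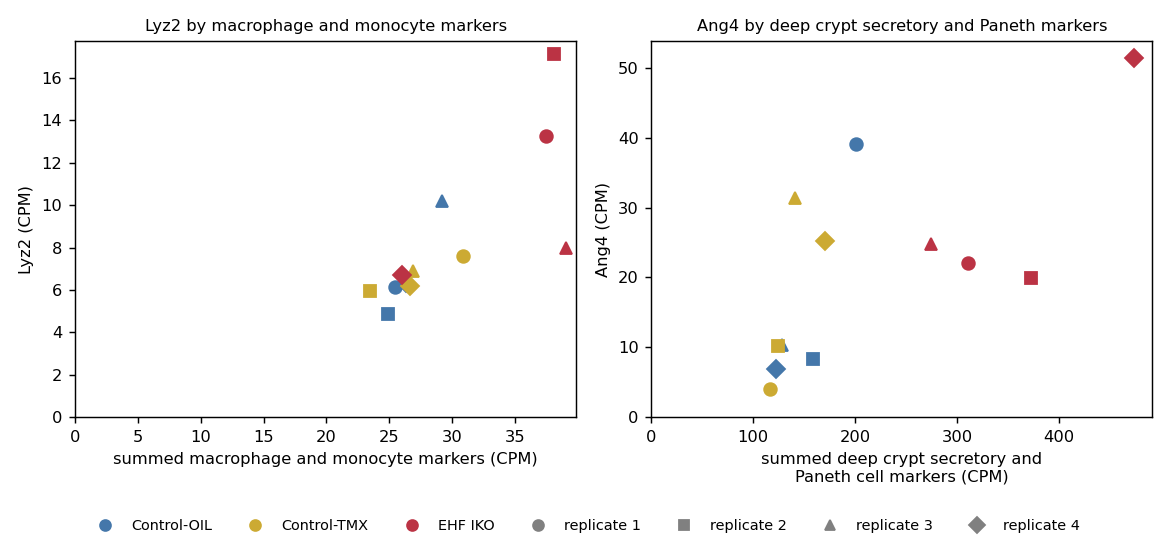
CPM of Lyz2 against summed macrophage and monocyte markers, and of Ang4 against summed deep crypt secretory and Paneth cell markers, with 1 point per library, coloured by group and shaped by replicate number. EHF IKO replicates 1 and 2 have the highest Lyz2, 13.3 and 17.1 CPM, and all 4 EHF IKO libraries lie to the right of the controls for the crypt markers, from 275 CPM. Most of each EHF IKO crypt marker sum is Reg4, and the sums without Reg4 overlap among the groups.

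Between the controls, no member was called by edgeR, where 0.0826% of all genes were (0.0445% lower and 0.0381% higher in Control-TMX), while 4 of 9 had an unadjusted p under 0.05, as did 12.9% of all genes, and 8 of 9 were lower in Control-TMX, as were 51.5% of all genes. DESeq2 called more of all genes, 197, and among them 2 members, Pglyrp1 and Retnlb (adjusted p = 0.00449 for each). These were also the 2 members whose Control-TMX values lay below all Control-OIL values, as did those of 3.20% of all genes. Retnlb differed by -2.19 ± 0.49 on the log2 scale (edgeR adjusted p = 0.145). Pigr and Wfdc18 had unadjusted p of 0.0178 and 0.0316 by edgeR, with differences of -0.38 ± 0.14 and -0.99 ± 0.42.

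A wider list of 26 tested antimicrobial effectors contained a larger fall than any member. Lpo, lactoperoxidase, was at 26.1 ± 6.29 CPM in Control-OIL, 19.3 ± 3.22 in Control-TMX and 1.12 ± 0.392 with the knockout. It fell by 4.51 ± 0.25 and by 4.07 ± 0.26 in log2 terms (edgeR adjusted p = 7.92e-08 and 2.64e-07). Apart from Lpo, the called genes of the list rose: 4 against Control-OIL and 5 against Control-TMX. Of all tested genes, 0.921% and 0.330% rose in these comparisons, and 0.762% and 0.470% fell. The 5 include the oxidant genes Nos2 and Duoxa2, which were also called as lower in Control-TMX than in Control-OIL. Against Control-OIL these differed by -0.29 and 0.15 in EHF IKO and were not called. Reg4, a lectin of secretory cells, was at 71.8 ± 19.1, 62.1 ± 24.1 and 274 ± 84.8 CPM and rose by 1.93 ± 0.29 and 2.13 ± 0.29. Zg16, a goblet cell lectin that binds Gram-positive bacteria, was at 689.7 ± 124, 811 ± 49.1 and 1299.7 ± 198 CPM and rose by 0.91 ± 0.14 and 0.68 ± 0.14. Pla2g2a, annotated as a polymorphic pseudogene, was at 4.60 ± 3.14, 3.21 ± 0.461 and 14.2 ± 2.14 CPM and rose by 1.6003 ± 0.34 and 2.16 ± 0.36. The median of the list was -0.05 against Control-OIL and 0.28 against Control-TMX.

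Of 43 tested genes of bacterial sensing beside Nod2, 2 fell against Control-OIL and none rose, where 0.762% of all tested genes fell and 0.921% rose. None was called against Control-TMX, where 0.470% of all tested genes fell and 0.330% rose. Tlr4, the receptor for lipopolysaccharide, was at 31.0 ± 3.08, 24.4 ± 2.05 and 20.8 ± 1.98 CPM. It fell by 0.57 ± 0.12 (log2) in EHF IKO against Control-OIL (edgeR adjusted p = 0.0223). Tlr2, a receptor for bacterial lipoproteins, was at 26.6 ± 2.82, 19.5 ± 5.99 and 14.2 ± 3.50 CPM. It too fell in that comparison, by 0.90 ± 0.21 (adjusted p = 0.0386). Against Control-TMX they differed by -0.23 ± 0.12 and -0.47 ± 0.21 (adjusted p = 0.469 and 0.392). Ripk2, the kinase through which NOD2 signals, was at 12.1 ± 1.66, 9.23 ± 0.788 and 7.49 ± 1.595 CPM. It differed by -0.69 ± 0.17 against Control-OIL (adjusted p = 0.0541) and by -0.30 ± 0.17 against Control-TMX (adjusted p = 0.529). The median over the list was -0.06 and 0.00, near that of all genes, and by unadjusted p against the mean of both controls the next gene was Il18, at 52.5 ± 9.62, 41.3 ± 4.55 and 58.5 ± 10.2 CPM. Of 19 tested cytokine receptors and transducers that act upstream of antimicrobial genes, none was called in any comparison of EHF IKO. Of all tested genes, 1.68% were called against Control-OIL, 0.800% against Control-TMX and 1.72% against the mean of both. With so few genes in the list, no call is near these shares. Nfkbiz, an NF-kB cofactor downstream of IL-17, was at 115 ± 19.7, 117 ± 11.9 and 158 ± 38.3 CPM (adjusted p = 0.139 against the mean of both). In that comparison Nfkbiz was called without EHF IKO replicate 4 (0.56, edgeR adjusted p = 0.0262) and with no filter on low counts (0.41, adjusted p = 0.00881). Il22ra1, a subunit of the IL-22 receptor, differed by 0.38 ± 0.15 (adjusted p = 0.290) and was also called without EHF IKO replicate 4 (0.52, adjusted p = 0.0276).

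**Figure D5:**
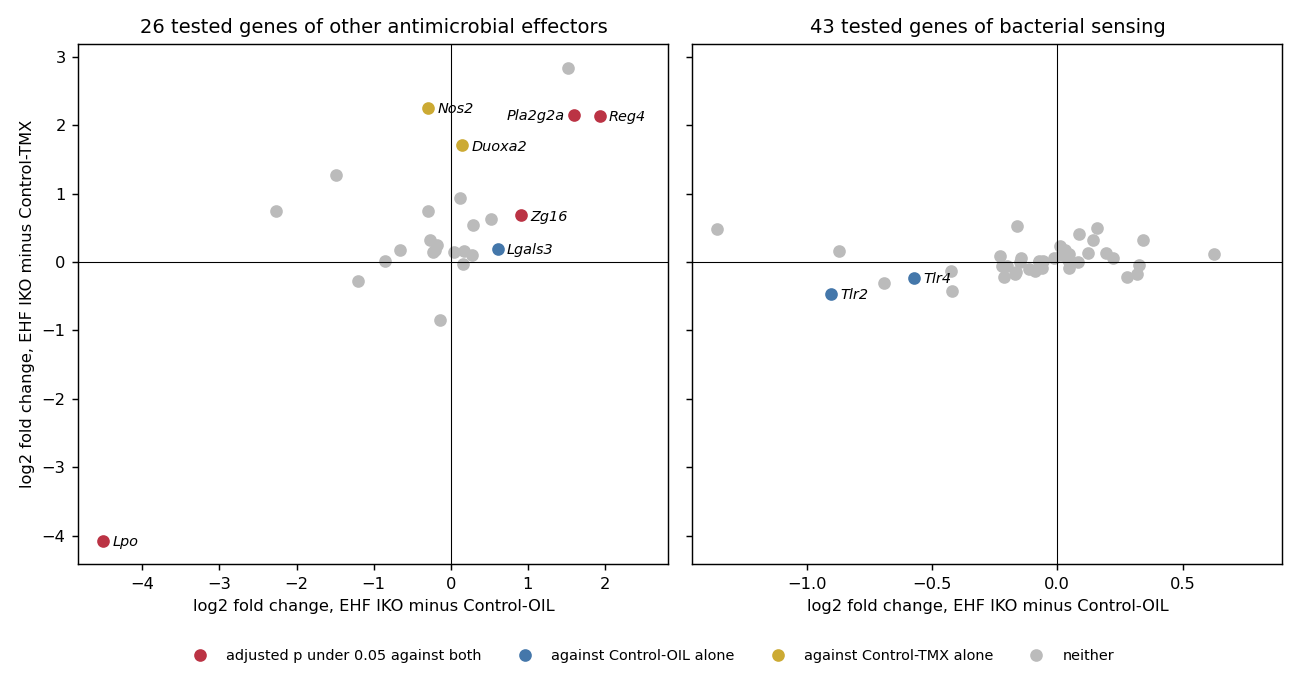
Log2 fold changes of EHF IKO against Control-OIL (horizontal) and Control-TMX (vertical) for 26 other antimicrobial effectors and 43 bacterial sensing genes, each point being 1 tested gene and colours marking the comparisons in which it was called. Both axes share the EHF IKO libraries; Lpo lies lowest on both axes, and Tlr2 and Tlr4 are called on the horizontal axis alone.

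The genes whose pattern over the 12 libraries was closest to that of Pglyrp1 were Capn13, a calpain protease, and Robo2, a guidance receptor. The root mean square difference in centred log2 CPM was 0.258 and 0.285. Capn13 was at 70.5 ± 18.5, 48.3 ± 4.27 and 25.4 ± 3.73 CPM, with the groups in the same order as Pglyrp1, although the lowest Control-OIL value, 54.9, was close to the highest of Control-TMX, 53.8. For Wfdc18 the closest were Robo2 and Adgrf1, an adhesion receptor, at 0.741 and 0.749. Adgrf1 was at 9.76 ± 3.76, 4.38 ± 1.44 and 1.47 ± 0.762 CPM.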

How the data were processed

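Total RNA of 12 libraries of colonic epithelium was analysed from the deposited counts of reads per gene symbol. Per the file headers, the authors made them with featureCounts 1.6.1 on Ensembl release 98 (GRCm38), strand setting 0 and without the options that count reads of several places or several genes. Reads of near-identical genes are therefore under-counted. Alignment used STAR per the submitters' processing notes, with no version stated there. Groups came from the labels.

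Tests used edgeR 4.0.16 under R 4.3.3 (filterByExpr, TMM, 1 robust quasi-likelihood fit of the 12 libraries, 9 residual degrees of freedom). P-values measure the spread between these libraries, with a common biological coefficient of variation of 18.3%. SE is the fold change divided by the root of F. The fit was also run on counts simulated with the spread of these data, with differences planted in genes above a mean log2 CPM of 1. Genes of lower level and differences smaller than those planted were not covered. Library totals had a median of 8138352 and set the counting error.

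The members and lists were chosen with earlier results of these data known. Named beside the members were up to 4 genes per list with the smallest p against the mean of both controls, and for each member called there the 2 genes closest in centred log2 CPM (mean log2 CPM at least 1). Nos2, Duoxa2, Duox2, Reg3b, Reg3g, Mrc1, Lyz1 and single markers were named after their values were seen. Alternatives were other scaling, filters, DESeq2 1.42.0, limma-voom 3.58.1, the fit without its robust setting, the compared groups alone, a replicate block, covariates for sex, myeloid and stromal markers, and leaving out each library. Positions are those of GENCODE M21, whose spans equal the files'. Protein sequences were not used here.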

Additional observations from a re-analysis of the deposited data

Results flagged for a closer look

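In 3 of the 30 sets of 4 values (10 genes in 3 groups) a library stood far from the other 3, its gap to the nearest being over 0.829 of the range. Chance gives that in about 1 in 20 sets. Ang4 accounted for 2: Control-OIL replicate 1 was at 39.1 CPM with the others at 6.91 to 10.3, and EHF IKO replicate 4 was at 51.4 CPM with the others at 19.9 to 24.7. Lypd8 in EHF IKO replicate 2 was at 2377 CPM with the others at 2244 to 2267, a gap that is small beside the level. EHF IKO replicate 2 is also the library in which 11 genes took 10.4% of the counts.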

How the results depend on the processing

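Pglyrp1 kept its calls in EHF IKO under every alternative run, with adjusted p at most 0.0232. Of the single-gene values of the 9 tested members, 769 kept direction and side of the threshold, 14 passed it newly, 16 lost it and 19 changed sign, and the cause was not tested. The number of members called against Control-OIL (3) was 1 with the stromal covariate and 2 to 3 without 1 library. Against Control-TMX (1) it was 2 without a filter, with DESeq2 and with sex as a covariate, and 1 without any 1 library. Against the mean of both (2) it was 1 with the stromal covariate and 1 to 3 without 1 library (1 without EHF IKO replicate 1). Between the controls (0) it was 1 without a filter, 2 with DESeq2, 2 with the myeloid covariate and 0 to 1 without 1 library (1 without EHF IKO replicate 4). The compared groups alone could not be fitted for the mean of both controls.

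Signs changed for small differences. Leaving out 1 library gave ranges of -0.24 to 1.09 for Ang4, -0.19 to 0.20 for Lyz2 and -0.32 to 0.0067 for Wfdc2 between the controls, and -0.0134 to 0.11 for Lypd8 against Control-OIL. Against the mean of both they were -0.0646 to 0.13 for Pigr, -0.49 to 0.23 for Retnlb, -0.0114 to 0.91 for Ighm and -0.17 to 0.0096 for Rnase4. With the stromal covariate, Retnlb was 0.31, Igkc -0.12, Jchain -0.14 and Slpi -0.10 against the mean of both, and Wfdc2 was 0.26 between the controls. With the myeloid covariate Retnlb was 0.27 and Rnase4 0.0304, and with sex Ang4 was -0.0133 between the controls.

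All-gene calls (265, 126, 270 and 13, in the order Control-OIL, Control-TMX, both, between controls) ranged over 26 to 724, 50 to 500, 86 to 831 and 1 to 441; DESeq2 gave 534, 305, 471 and 197, and leaving out EHF IKO replicate 4 gave 711, 162, 522 and 67. Same-numbered libraries were not taken as paired, since 5 of 12 pairs had a correlation of deviations over 0.1. Between Control-TMX and EHF IKO all 4 were positive (0.0998 to 0.405) and 3 were highest with their own number, a hint from the data; the number also follows sex. With the replicate block, 2 members were called against Control-OIL, 1 against Control-TMX, 2 against both and 0 between controls, beside 173, 72, 148 and 18 of all genes. Wfdc18, Nod2 and Lcn2 are limited by depth, with 250, 514 and 30 counts in all.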

Other observations

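Beside the members, the oxidant genes Nos2 and Duoxa2 were low in Control-TMX and overlapped with Control-OIL in EHF IKO. They and the genes that follow were chosen after their values were seen. Nos2, inducible nitric oxide synthase, was at 37.0, 28.5, 39.2 and 33.1 CPM in Control-OIL, 3.11, 9.64, 6.67 and 3.93 in Control-TMX, and 35.4, 23.7, 34.5 and 18.7 in EHF IKO. It fell between the controls by 2.55 ± 0.30 on the log2 scale (edgeR adjusted p = 0.00404) and rose in EHF IKO against Control-TMX by 2.26 ± 0.30 (adjusted p = 0.00232). Duoxa2, the maturation factor of the hydrogen peroxide-producing oxidase DUOX2, was at 18.6 ± 1.85, 6.29 ± 1.69 and 20.6 ± 6.05 CPM. It fell between the controls by 1.56 ± 0.22 (adjusted p = 0.0129) and rose against Control-TMX by 1.71 ± 0.22 (adjusted p = 0.00183). Duox2 itself was at 528 ± 60.1, 256 ± 57.5 and 429 ± 152 CPM and was not called in any comparison (adjusted p = 0.712 against Control-OIL, 0.208 against Control-TMX and 0.135 between the controls). Both comparisons of Nos2 and Duoxa2 share the Control-TMX libraries, so they are not independent.

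Reg3b and Reg3g, lectins that bind bacterial cell wall, were spread widely. Reg3b was at 338 to 2685 CPM in Control-OIL, 133 to 162 in Control-TMX and 148 to 472 in EHF IKO, with a difference between the controls of -3.02 ± 0.66 (edgeR adjusted p = 0.151). Reg3g was at 77.5 to 640.1, 13.4 to 59.3 and 54.3 to 151.2 CPM, with a difference of -2.75 ± 0.77 (adjusted p = 0.240). Retnlb was low in Control-TMX as well, as described above.

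The EHF IKO difference was also compared between female and male mice, a test chosen after the values were seen, with 2 mice of each sex per group. By edgeR it called 0 of 15743 genes, 2481 having an unadjusted p under 0.05. For Lyz2 the difference from the mean of both controls was 1.32 in females and 0.01 in males on the log2 scale (unadjusted p = 8.86e-04, adjusted p = 0.189). For Pigr it was -0.30 and 0.35 (adjusted p = 0.192), and for Wfdc2 -0.07 and 0.82 (adjusted p = 0.262). For Pglyrp1 it was -1.45 and -1.19 (adjusted p = 0.617), lower in both sexes. The female EHF IKO libraries were replicates 1 and 2, and in replicate 2 11 genes took 10.4% of the counts. A difference by sex and one of that library cannot be told apart here.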
